A study of Mus musculus with 6 samples.

Results

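The genes described here are 36 genes of the brain's blood vessels, namely markers of endothelial cells and of the mural cells around them, together with *Pdgfb*, the ligand through which endothelial cells recruit mural cells. They were chosen by symbol, and all 36 were listed among the 13886 genes of the RNA-seq table of the medial amygdala (MeA). The RNA came from female Kiss1Cre+/Rpl22HA+/+ mice, a RiboTag line in which Cre made from the *Kiss1* gene switches on a hemagglutinin (HA) tag on a ribosomal protein, so that an antibody against the tag pulls down tagged ribosomes with the mRNA they carry (the IP sample). Every mouse, in both groups, was ovariectomized (OVX) at 8 weeks of age, given estradiol (E2) by a subcutaneous capsule for 4 days and left without it for 7 days. The E2 group then received another E2 capsule for 5 days and the OVX group received none, so that OVX females also carried an earlier E2 exposure. There were 3 libraries per group, and each was made from 1 pool of MeA micropunches from 4 mice. A tag that depends on Cre marks any cell in which Cre was ever active. The study checked the IP by RT-PCR in mice with and without Cre. It reported *Kiss1* and *Cck* in the IP of mice with Cre and in no IP of mice without it. *Avp* was found in the lysate before the IP and in no IP sample. No vessel gene was part of that check, and libraries were made from the mice with Cre. Vessel RNA carried through the IP without a tag was therefore not tested here.

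Endothelial cells line the vessels, and in the brain they are joined by tight junctions and carry nutrient transporters and drug efflux pumps that together form the blood-brain barrier. Pericytes and smooth muscle cells, the mural cells, wrap around this lining. PDGF-B, the protein of *Pdgfb*, is released by endothelial cells and held near the vessel wall, and it binds PDGF receptor beta (*Pdgfrb*) on pericytes, which need it to spread along new vessels. Neurons can also make PDGF-B, and vessel cells are known to carry estrogen receptors.

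The values were log2 CPM, in which CPM is the count of a gene scaled to a common library size, and the scaled library sizes ran from 28.1M to 34.2M. *Kiss1* was listed as 2 gene models, with mean log2 CPM of 2.70 and 0.40 over the 6 libraries. Per kilobase of the longest transcript, the 8 neuron markers had a median log2 CPM of 7.51, the 8 astrocyte markers 5.23, the 8 oligodendrocyte markers 5.42 and the 8 microglia markers 2.70. The 36 vessel genes had a median of 2.82 on this scale, close to the 2.97 of all genes. Vessel RNA was thus measured in every library of samples labelled as *Kiss1* cells, at a lower level per length than neuronal RNA. In IP samples, the number of vessel cells and their RNA per cell cannot be told apart. Nor can the share of vessel RNA carried through the IP, or RNA of these genes from other cells.

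The levels per length spread widely among the vessel genes. *Bsg*, which encodes basigin, a partner of lactate transporters made by many cell types, stood highest at 8.0 log2 CPM per kilobase. The next were *Pltp*, a phospholipid transfer protein, at 4.62 and *Egfl7*, a protein that endothelial cells secrete into the matrix, at 4.50. *Slc2a1*, the barrier's glucose transporter, followed at 4.42. Reads from shared sequence can count in these levels. *Pltp* shared 8.17% of its 75-base stretches with *Ctsa*, *Egfl7* 2.93% with *Gm20532* and *Slc2a1* 0.834% with *Gm12868*. *Pdgfb* stood at 4.01, next to the tight junction gene *Cldn5* at 4.00 and the pericyte gene *Rgs5*, a regulator of G protein signalling, at 4.05. These neighbours differed by less than the spread between libraries. The lowest were *Abcc9*, a subunit of the pericyte potassium channel, at -1.18 and *Anpep*, a surface peptidase of pericytes, at -0.83. The 3 endothelial transcription factors were low as a group, at 0.85 for *Ets1*, 0.69 for *Sox17* and 0.03 for *Erg*.

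**Figure D1:**
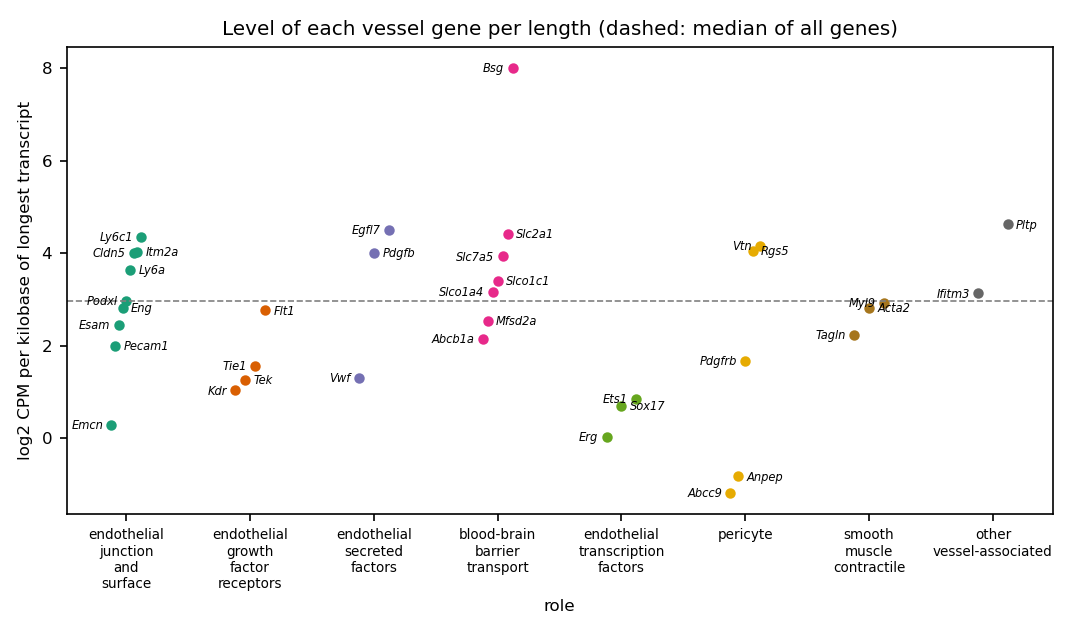
Mean log2 CPM per kilobase of the longest transcript over the 6 libraries (vertical axis) for the 36 vessel genes, 1 point per gene, arranged by role (horizontal axis), with the median of all genes as a dashed line at 2.97. *Bsg* stands alone at 8.0, *Pdgfb* lies at 4.01 among the upper genes, and the transcription factors lie between 0.03 and 0.85.

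Promoter sequences from RefSeq (GRCm38.p6) matched 24 of the 36 genes, with 29 promoters between them, and 12 genes, *Pdgfb* among them, had no entry. They were examined because *Ets1* and *Erg*, which belong to the ETS family of DNA-binding proteins, are among the genes described and because most of the genes varied together across libraries. The 6-base core AGGAAG or CGGAAG, read on both strands of the 250 bases before the start, was present in 13 of the 29 promoters (44.8%) and in 39.2% of all 32851 promoters. The estrogen response half-site AGGTCA was present in 5 (17.2%, against 14% of all), and the CArG box, the serum response element of smooth muscle genes, in 1, that of *Myl9* (3.45%, against 1.47%). The 150 bases upstream of the start are shown for a tight junction gene, a growth factor receptor and a barrier transporter, with the ETS core in capitals on whichever strand it was read.
*Cldn5*, chr16:18776697-18776846, plus strand, no ETS core: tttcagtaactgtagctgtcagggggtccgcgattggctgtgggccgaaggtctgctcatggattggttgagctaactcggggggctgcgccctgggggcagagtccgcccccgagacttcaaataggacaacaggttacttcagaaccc
*Flt1*, chr5:147726012-147726161, minus strand, cores 129 and 53 bases before the start: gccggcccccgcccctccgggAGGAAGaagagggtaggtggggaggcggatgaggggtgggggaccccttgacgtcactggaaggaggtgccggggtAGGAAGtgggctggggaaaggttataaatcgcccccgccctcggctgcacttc
*Slco1c1*, chr6:141524204-141524353, plus strand, 1 core 128 bases before the start: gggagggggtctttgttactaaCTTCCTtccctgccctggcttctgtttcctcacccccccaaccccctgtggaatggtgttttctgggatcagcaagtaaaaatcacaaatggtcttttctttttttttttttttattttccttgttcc
A match of these letters describes the window only, and all 3 genes, with a core or without, had their highest value in OVX replicate 2 and their lowest in OVX replicate 3.

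Before the treatment is considered, the libraries have to be compared within their groups. OVX replicate 2 had the highest value of the 6 libraries in 27 of the 36 vessel genes, where it was the highest library in 16.2% of all genes. E2 replicate 1 was the highest in 7 others, including all 3 smooth muscle genes. The lowest library was OVX replicate 3 in 18 genes and OVX replicate 1 in 10. OVX replicate 2 exceeded the mean of the other OVX libraries in all 36 genes, by a median of 0.76 log2 units, whereas over all genes the median gap was 0.00. The corresponding gap of E2 replicate 1 was above 0 in 31 of the 36 genes, with a median of 0.29.

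**Figure D2:**
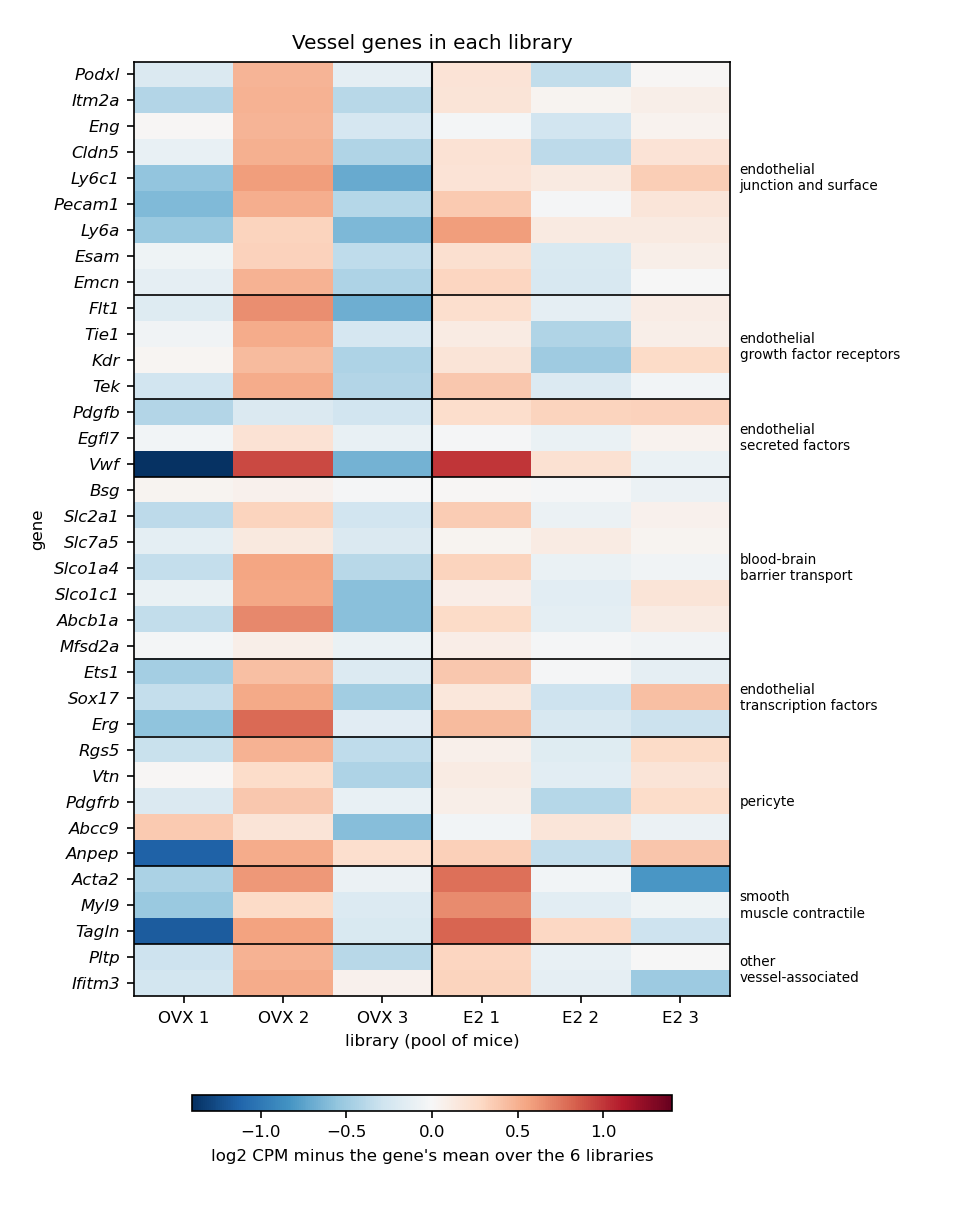
Log2 CPM of each of the 36 vessel genes (rows, grouped by role) in each of the 6 libraries (columns) after subtraction of the gene's mean, with red above and blue below it. OVX 2 is red in nearly every row and OVX 1 and OVX 3 are mostly blue, while *Pdgfb* is blue in all 3 OVX libraries and red in all 3 E2 libraries.

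Summed over the 34 vessel genes other than *Pdgfb* and the widely made *Bsg*, the CPM were 651, 1065 and 614 in OVX replicates 1, 2 and 3 and 925, 722 and 819 in E2 replicates 1, 2 and 3. The range of the E2 libraries lay wholly inside that of the OVX libraries. The same held for the 18 endothelial genes other than *Pdgfb*, at 262 to 482 CPM in OVX and 309 to 407 CPM in E2 libraries, and for the 5 pericyte genes, at 96.8 to 161 and 107 to 144 CPM. The 3 smooth muscle genes overlapped as well, at 19.8 to 43.0 CPM in OVX and 22.4 to 51.1 CPM in E2 libraries.

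The gap of OVX replicate 2 reached beyond these genes. It was 0.77 in the median of 34 other endothelial genes (positive in 33), 0.45 in 16 other mural genes (positive in 14), 0.85 in 7 fibroblast and meningeal genes and 0.78 in 5 choroid plexus genes. Smaller gaps were present in astrocyte (0.26), oligodendrocyte (0.36) and microglia (0.25) genes, and the 8 neuron markers had a gap of -0.08. This library also held the most RNA of anterior pituitary genes, with 1029 CPM summed over 3 genes against 2.02 to 228 CPM in the other 5 libraries. The part of this library's makeup in the comparisons that follow was not tested as a cause, and the counts and differences of the vessel genes are also given without it.

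**Figure D3:**
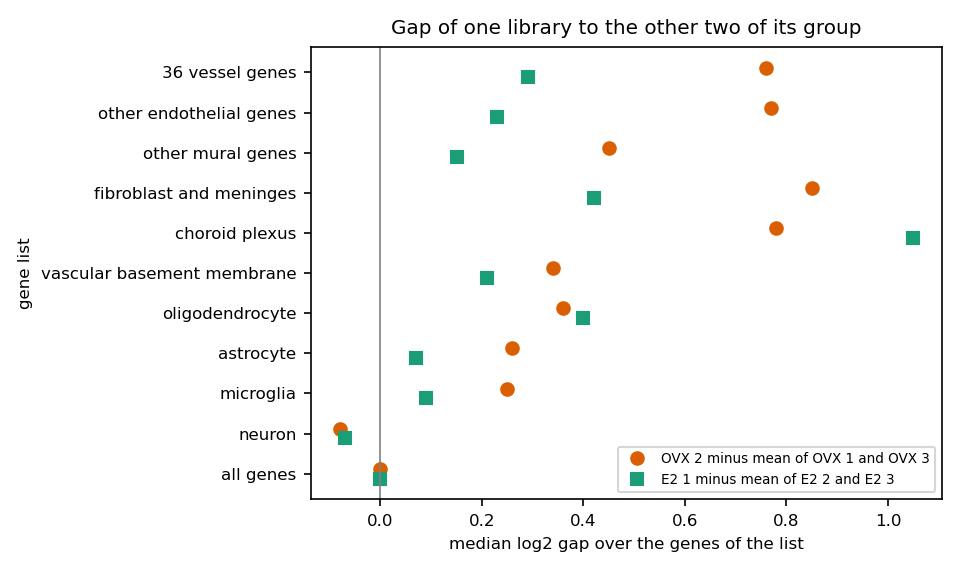
Median over the genes of each list (vertical axis) of the log2 gap between 1 library and the mean of the other libraries of its group (horizontal axis), with circles for OVX replicate 2 and squares for E2 replicate 1. The vessel genes and the other endothelial genes lie at 0.76 and 0.77 for OVX replicate 2, the neuron markers lie at -0.08 and all genes at 0.00.

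The comparison of E2-treated with OVX females asked whether E2 changed the RNA of vessel genes in the IP samples. *Pdgfb* rose with E2, to a 1.5-fold level, and it was the only one of the 36 genes that passed the threshold, an adjusted p under 0.05 in limma with Benjamini-Hochberg adjustment over all 13886 genes. This is 1 of 36 genes, where 0.288% of all genes passed in either direction and 0.23% passed as higher with E2. *Pdgfb* was put on the list with its call in these data known, so its share of the list tests nothing. The study had itself listed *Pdgfb* among the genes raised by E2 in these libraries, so the call here is not a separate finding. *Pdgfb* was also the only vessel gene whose OVX and E2 libraries did not overlap, which held for 13.7% of all genes. Among the 36 genes 2 had an unadjusted p under 0.05, *Pdgfb* and *Ly6a*, against 8.56% of all genes.

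*Pdgfb* (ENSMUSG00000000489, chr15:79995874-80014977 on the minus strand of GRCm38) had log2 CPM of 5.15, 5.36 and 5.30 in OVX replicates 1, 2 and 3 and of 5.81, 5.87 and 5.89 in E2 replicates 1, 2 and 3. Every E2 library lay above every OVX library, and the libraries of a group lay close together, with an SD of 0.11 in OVX and 0.04 in E2 (n = 3 each). The difference was 0.59 (SE 0.08, limma adjusted p = 0.00475). The gap of OVX replicate 2 in *Pdgfb* was 0.14, and only *Bsg*, at 0.05, had a smaller one among the 36 genes. With the mean of the 34 other vessel genes as a covariate, a term added after the data were seen, the difference was 0.57 (SE 0.08, limma adjusted p = 0.00764). That mean was 3.67, 4.46 and 3.67 in OVX and 4.28, 3.88 and 4.03 in E2 libraries. The groups overlapped in it, so the term could take little from the difference, and vessel content was not tested as a cause. None of the 75-base stretches of the *Pdgfb* transcripts was shared with another gene. An exact permutation test of 3 against 3 libraries cannot give a p below 0.1, so the call rests on the spread that limma pools across genes, and without the mean-variance trend it was lost (limma adjusted p = 0.267).

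**Figure D4:**
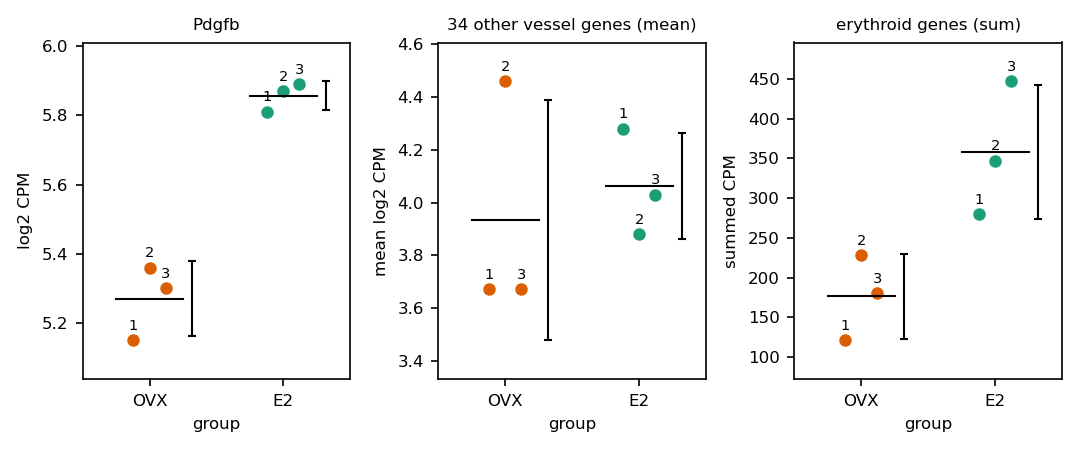
Values per library (points, numbered by replicate) with the group mean (horizontal line) and SD (bar, n = 3) for *Pdgfb* in log2 CPM, for the mean log2 CPM of the 34 other vessel genes, and for the summed CPM of 4 erythroid genes; the vertical axes do not start at 0. *Pdgfb* and the erythroid genes are separated between OVX and E2, and the mean of the other vessel genes is not, with OVX replicate 2 highest at 4.46.

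In the other 35 vessel genes no difference passed the threshold in limma. Of these 25 had a higher and 10 a lower mean with E2, and the median difference of all 36 genes was 0.11 beside 0.00 for all genes. The error of the differences was large, with a median SE of 0.21 over the 36 genes where it was 0.107 over all genes.

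The other secreted factors were *Egfl7* and *Vwf*, the latter encoding von Willebrand factor, the clotting protein stored in endothelial cells. *Vwf* had log2 CPM of 3.06, 5.37 and 3.78 in OVX and 5.44, 4.65 and 4.35 in E2 libraries. OVX replicate 2 stood with the E2 libraries in this gene and the other OVX libraries below them. The difference was 0.74 with an SE of 0.42 (adjusted p = 0.692). For *Egfl7* it was -0.04 (SE 0.09), and its 6 values spanned 0.30 log2 units.

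The 9 junction and surface genes differed by -0.16 to 0.56. *Podxl*, which encodes a surface sialomucin, had log2 CPM of 5.20, 5.87 and 5.27 in OVX and 5.59, 5.05 and 5.41 in E2 libraries. *Emcn*, a mucin-like protein of capillaries and veins, had 1.97, 2.59 and 1.67 in OVX and 2.40, 1.87 and 2.09 in E2 libraries. In both genes OVX replicate 2 had the highest value and the groups overlapped. *Ly6a*, a membrane-anchored surface antigen, had 3.04, 3.88 and 2.93 in OVX and 4.15, 3.69 and 3.69 in E2 libraries, so that OVX replicate 2 alone overlapped with E2. Its difference was 0.56 (SE 0.22, limma unadjusted p = 0.0257, adjusted p = 0.493). The related *Ly6c1* differed by 0.44 (SE 0.25) and *Pecam1*, an adhesion molecule between endothelial cells, by 0.34 (SE 0.23). *Itm2a*, a membrane protein abundant in brain endothelium, differed by 0.21 (SE 0.18). The remaining genes lay closer to 0, at 0.02 for *Cldn5*, 0.06 for the adhesion molecule *Esam* and -0.16 for *Eng*, which encodes endoglin, a co-receptor for ligands of the TGF-beta family. *Ly6c1* shared 19% of its 75-base stretches with other genes, mainly *Ly6c2* and *Ly6a*, and *Ly6a* shared 6.33%, so their reads could have been split between copies.

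Of the 4 growth factor receptors, *Flt1* and *Kdr* bind VEGF, *Tek* binds angiopoietins and *Tie1* is its partner. *Flt1* had log2 CPM of 5.36, 6.20 and 4.86 in OVX and 5.78, 5.42 and 5.65 in E2 libraries. *Tek* had 3.20, 3.99 and 3.06 in OVX and 3.85, 3.28 and 3.43 in E2 libraries. Both genes had the highest and the lowest of their 6 values within the OVX group. The differences of the 4 genes were 0.14 for *Flt1* (SE 0.23), 0.10 for *Tek* (SE 0.23), -0.03 for *Kdr* (SE 0.23) and -0.15 for *Tie1* (SE 0.20).

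The 7 transport genes of the barrier had small differences. *Bsg* had log2 CPM of 8.64, 8.67 and 8.59 in OVX and 8.62, 8.59 and 8.53 in E2 libraries, and *Mfsd2a*, a transporter of lipid-bound docosahexaenoic acid, had 3.61, 3.72 and 3.54 in OVX and 3.73, 3.62 and 3.58 in E2 libraries. These were the genes with the narrowest spread of the 36, and they differed by -0.05 (SE 0.05) and 0.02 (SE 0.13). *Slc7a5*, the large neutral amino acid transporter, was also narrow, with a difference of 0.13 (SE 0.09). The organic anion transporters *Slco1a4* and *Slco1c1* differed by 0.11 and 0.08 (SE 0.20 each), the efflux pump *Abcb1a* by 0.17 (SE 0.24) and *Slc2a1* by 0.22 (SE 0.15). *Abcb1a* shared 17.1% of its 75-base stretches, chiefly with *Abcb1b*.

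The 3 transcription factors did not pass the threshold. *Ets1* had log2 CPM of 2.72, 3.61 and 3.0 in OVX and 3.57, 3.18 and 3.07 in E2 libraries, and *Erg*, a factor that maintains endothelial identity, had 1.17, 2.53 and 1.57 in OVX and 2.18, 1.51 and 1.43 in E2 libraries. The 2 groups overlapped in each, and the differences were 0.16 (SE 0.22) and -0.05 (SE 0.35). *Sox17*, a factor of arterial endothelium, differed by 0.19 (SE 0.28), and 14.1% of its 75-base stretches lay in an overlapping transcript.

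Among the 5 pericyte genes, *Rgs5* had log2 CPM of 5.78, 6.57 and 5.73 in OVX and 6.16, 5.92 and 6.36 in E2 libraries, with a difference of 0.12 (SE 0.17). *Anpep* had -0.04, 1.61 and 1.33 in OVX and 1.43, 0.76 and 1.48 in E2 libraries, where OVX replicate 1 stood apart as the lowest. *Vtn*, the matrix protein vitronectin that brain pericytes make, differed by 0.10 (SE 0.15) and *Abcc9* by 0.03 (SE 0.29). *Pdgfrb*, the receptor of PDGF-B, had 3.89, 4.47 and 3.99 in OVX and 4.18, 3.70 and 4.35 in E2 libraries. Its groups overlapped, and it differed by -0.04 (SE 0.18, limma adjusted p = 0.983) where its ligand differed by 0.59.

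In all 3 smooth muscle genes E2 replicate 1 stood highest. *Acta2*, smooth muscle actin, had log2 CPM of 3.40, 4.44 and 3.76 in OVX and 4.61, 3.8 and 3.02 in E2 libraries, and it differed by -0.05 (SE 0.32). *Tagln*, the actin-binding protein transgelin, had 1.74, 3.47 and 2.70 in OVX and 3.72, 3.20 and 2.62 in E2 libraries, with a difference of 0.54 (SE 0.36). *Myl9*, a myosin regulatory light chain, differed by 0.30 (SE 0.24). *Tagln* shared 53.3% of its 75-base stretches with an antisense gene and with *Pcsk7*, and the libraries were not stranded, so reads from the shared stretches cannot be told apart from theirs. The 2 remaining genes were *Pltp*, with 5.49, 6.27 and 5.39 in OVX and 6.08, 5.68 and 5.77 in E2 libraries, and *Ifitm3*, an antiviral membrane protein, with 2.32, 3.09 and 2.63 in OVX and 2.88, 2.45 and 2.07 in E2 libraries. Their differences were 0.13 (SE 0.18) and -0.21 (SE 0.25).

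**Figure D5:**
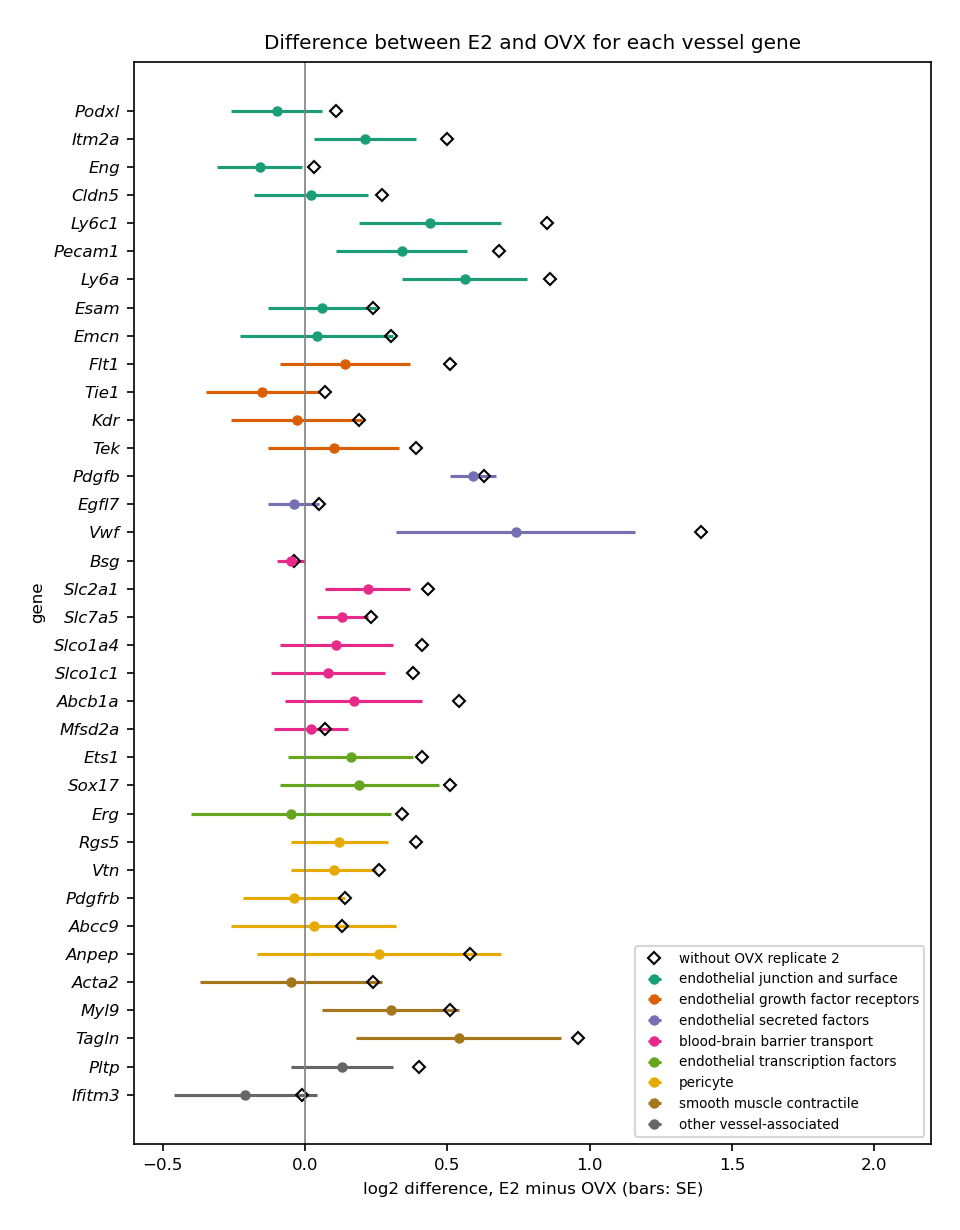
Log2 difference of E2 minus OVX (horizontal axis) for each of the 36 vessel genes (vertical axis, grouped by role), as filled points with SE bars for all 6 libraries and as open diamonds for the 5 libraries without OVX replicate 2. *Pdgfb* moves little, from 0.59 to 0.63, while most other genes shift to the right, *Vwf* from 0.74 to 1.39.

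Without OVX replicate 2 the picture of the other genes changed. The median difference of the 36 genes was then 0.38 in place of 0.11, and 34 of the 36 were higher with E2, the exceptions being *Bsg* and *Ifitm3*. Of all 13886 genes 7054 were higher. OVX replicate 2 lay above the mean of the other OVX libraries in all 36 genes, so leaving it out raised each difference by construction. Under this condition 3 vessel genes passed the threshold, where 0.367% of all genes did. They were *Pdgfb* at 0.63 (SE 0.09, limma adjusted p = 0.00467), *Ly6c1* at 0.85 (SE 0.14, limma adjusted p = 0.0165) and *Vwf* at 1.39 (SE 0.26, limma adjusted p = 0.0342). Leaving out OVX replicate 3 instead gave a median difference of -0.08, and leaving out E2 replicate 1 gave 0.03. The direction of the median thus depended on which OVX libraries were included, whereas *Pdgfb* was called with each library left out in turn, at 0.53 to 0.63.

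The remaining ligands and receptors of the PDGF family were examined beside *Pdgfb*. Of the 4 other genes listed beyond *Pdgfb* and *Pdgfrb*, none passed the threshold in limma. An unadjusted p under 0.05 was found in 2 of them, against 8.56% of all genes. *Pdgfra*, the alpha receptor that marks oligodendrocyte precursors and fibroblasts, had log2 CPM of 4.91, 5.20 and 4.86 in OVX and 5.71, 5.31 and 5.58 in E2 libraries. Its groups did not overlap, which held for 13.7% of all genes, and the difference was 0.54 (SE 0.11, limma adjusted p = 0.0838). *Pdgfa*, a ligand of the alpha receptor that neurons and astrocytes make, had 5.58, 5.37 and 5.64 in OVX and 5.27, 5.38 and 5.37 in E2 libraries, a difference of -0.19 (SE 0.09, limma adjusted p = 0.584). Without OVX replicate 2, *Pdgfra* passed the threshold, at 0.65 (SE 0.11, limma adjusted p = 0.0231). The ligands *Pdgfc* and *Pdgfd* differed by 0.12 (SE 0.16) and -0.04 (SE 0.31). Per kilobase, *Pdgfa* at 4.39 and *Pdgfb* at 4.01 log2 CPM were the most abundant ligands, followed by *Pdgfc* at 1.94 and *Pdgfd* at -0.36.

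In 3 other vessel gene lists no gene passed the threshold in limma with all 6 libraries. In the VEGF and angiopoietin pathway 0 of 9 further genes passed, and *Nrp2*, a VEGF co-receptor that neurons also make, had the smallest p, with log2 CPM of 7.93, 8.02 and 8.15 in OVX and 8.37, 8.35 and 8.19 in E2 libraries (difference 0.27, SE 0.07, adjusted p = 0.173). The summed CPM of these 9 genes did not overlap, at 371 to 393 in OVX and 430 to 455 in E2 libraries. *Nrp2* held most of this sum, at group means of 262 CPM in OVX and 316 CPM in E2, and it alone of the 9 had groups without overlap. The median difference of the 9 genes was 0.09, with 6 higher and 3 lower with E2. Of 19 further Notch and TGF-beta pathway genes 0 passed, and the Notch target *Hey1* was nearest at -0.16 (SE 0.07, adjusted p = 0.576). The 11 genes of the vascular basement membrane also had 0 calls, and the collagen-binding *Sparc* had the smallest p, with a difference of 0.31 (SE 0.09, adjusted p = 0.282). Without OVX replicate 2, *Sparc* passed the threshold, at 0.42 (SE 0.08, limma adjusted p = 0.036), and the VEGF and Notch lists still had 0 calls. *Nid2*, a basement membrane nidogen named after its values were seen, lay the other way, with 2.54, 2.61 and 2.25 log2 CPM in OVX and 2.12, 1.40 and 1.75 in E2 libraries. Its groups did not overlap, and it had the list's widest difference, -0.71 (SE 0.25, limma adjusted p = 0.404). At an unadjusted p under 0.05 these 3 lists held 1, 1 and 2 genes, against 8.56% of all genes. In 1, 2 and 1 of their genes the groups did not overlap, against 13.7% of all genes.

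The 34 other endothelial genes, which include the adherens junction gene *Cdh5* and the caveolin gene *Cav1*, had a median difference of 0.10 and 0 calls in limma. The gene with the smallest p was *S1pr1*, a sphingosine 1-phosphate receptor of endothelium and astrocytes, at 0.23 (SE 0.09, adjusted p = 0.489). The 16 other mural genes had a median of 0.09 and 0 calls, with *Cspg4*, the NG2 proteoglycan of pericytes and oligodendrocyte precursors, nearest at 0.30 (SE 0.13, adjusted p = 0.544). At an unadjusted p under 0.05 they held 2 genes and 1 gene, against 8.56% of all genes. Without OVX replicate 2 their medians were both 0.30, with 0 calls in each list, so the shift seen in the 36 genes was present there too.

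Some markers of other cells were separated between the groups in the same direction as *Pdgfb*. The 4 erythroid genes summed to 121, 228 and 180 CPM in OVX and 280, 347 and 447 CPM in E2 libraries, without overlap. Of these genes 2 passed the threshold, where 0.288% of all genes did. They were the alpha globin copies *Hba-a1* at 1.01 (SE 0.16, limma adjusted p = 0.0124) and *Hba-a2* at 1.04 (SE 0.20, limma adjusted p = 0.0469). Their reads can be split between near-identical copies. Of 7 fibroblast and meningeal genes 1 passed, *Col1a1*, a chain of type I collagen, at 1.18 (SE 0.22, limma adjusted p = 0.0469). It had 2.53, 3.62 and 3.15 log2 CPM in OVX and 4.25, 4.06 and 4.53 in E2 libraries. *Hba-a1*, *Hba-a2* and *Col1a1* were also listed by the study as raised by E2 in these libraries, so their calls are not separate findings. The list as a whole overlapped, at 71.7 to 123 CPM in OVX and 72.8 to 113 CPM in E2 libraries. Its median difference was 0.00, with 4 genes higher and 3 lower with E2. The other type I collagen chain, *Col1a2*, differed by 0.00 (SE 0.26). The part of red blood cell or connective tissue RNA in the difference of *Pdgfb* was not tested.

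The other marker lists overlapped between the groups. Summed CPM of OVX and E2 libraries were 6316 to 6673 and 6314 to 6796 for neuron, 1691 to 2105 and 1846 to 2217 for astrocyte, 1628 to 2270 and 1795 to 2495 for oligodendrocyte, 157 to 193 and 147 to 169 for microglia and 686 to 1072 and 393 to 1013 for choroid plexus markers. An exception was the list of 6 genes of forebrain excitatory neurons, at 880 to 1137 CPM in OVX and 668 to 871 CPM in E2 libraries, where the ranges did not meet. The vesicular glutamate transporter gene *Slc17a7* held most of this sum, at group means of 822 CPM in OVX and 613 CPM in E2. The study named it, as *Vglut1*, among the transcripts of MeA *Kiss1* cells. None of the 6 genes passed the threshold in limma, and 5 had an unadjusted p under 0.05, against 8.56% of all genes. The smallest p was that of *Slc17a7*, at -0.42 (SE 0.11, limma adjusted p = 0.174). The cells that gave this RNA, and its part in the values of the vessel genes, were not tested.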

How the data were processed

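The deposited values were log2 CPM per gene and library, which the authors made by quality control with FastQC 0.11.8, trimming with Trimmomatic 0.38, alignment with STAR 2.6.0a, quantification with RSEM on GRCm38, restriction to protein-coding genes with a mean CPM above 1 in at least 1 treatment group, and voom, which adds 0.5 to each count and uses TMM-scaled library sizes. The libraries were unstranded and polyA-enriched, and the authors' group means were not used. The authors' deposited comparison table, which holds log2 fold changes, group means, a moderated statistic and p-values, was not used.

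The log2 CPM of 13886 genes in 6 libraries (3 per group) were compared with limma 3.58.1 in R 4.3.3, with treatment as the only term, a mean-variance trend, 2-sided p-values and Benjamini-Hochberg adjustment over all genes, at a threshold of 0.05. The fit was tested on simulated data. Differences are E2 minus OVX. The replicate libraries were separate pools of mice. Depth per library was computed from the lowest log2 CPM, taken as a count of 0. Gene positions, lengths and shared sequence came from GENCODE mouse release M21, and 13873 genes had a length. The members, their roles and the marker lists were chosen with earlier results of these data known. Values per library are given for genes past the threshold or without overlap, for the genes with the highest and lowest mean log2 CPM of each role, and, chosen after their values were seen, for *Ly6a* and *Pdgfrb*. Of the other lists, the genes past the threshold or with the smallest p are named, plus the PDGF family. Alternatives changed the weights, trend, scaling, filter, pseudocount, block and libraries.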

Additional observations from a re-analysis of the deposited data

How the results depend on the processing

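*Pdgfb* was called higher with E2 under every alternative run except the fit without a mean-variance trend, where its difference was 0.59 with an adjusted p of 0.267 and 0 of all genes and 0 of the 36 vessel genes were called. When libraries were left out one by one, it differed by 0.53 to 0.63, the count of all genes called was 20 to 66 beside 40, the count of vessel genes called was 1 to 3 beside 1, and the median difference of the vessel genes was -0.08 to 0.38. Besides *Pdgfb*, the 2 vessel genes gained were *Ly6c1* and *Vwf*, both without OVX replicate 2. Of the other lists, *Pdgfra*, *Sparc*, *Aldoc* and *Hbb-bt* were called without that library and not with all 6.

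Of the other 35 vessel genes, none of which was called, 24 changed sign in at least 1 leave-out. Their ranges were -0.18 to 0.27 for *Cldn5*, -0.16 to 0.51 for *Flt1*, -0.25 to 0.21 for *Kdr*, -0.08 to 0.39 for *Tek*, -0.31 to 0.07 for *Tie1*, -0.10 to 0.24 for *Esam*, -0.06 to 0.41 for *Slco1a4*, -0.19 to 0.38 for *Slco1c1*, -0.08 to 0.54 for *Abcb1a*, -0.32 to 0.03 for *Eng*, -0.10 to 0.05 for *Egfl7*, -0.16 to 0.30 for *Emcn*, -0.22 to 0.11 for *Podxl*, -0.02 to 0.07 for *Mfsd2a*, -0.17 to 0.15 for *Pdgfrb*, -0.03 to 0.39 for *Rgs5*, -0.26 to 0.22 for *Abcc9*, -0.45 to 0.34 for *Acta2*, -0.25 to 0.58 for *Anpep*, -0.09 to 0.26 for *Vtn*, -0.04 to 0.40 for *Pltp*, 0.00 to 0.51 for *Sox17*, -0.34 to 0.34 for *Erg* and -0.03 to 0.41 for *Ets1*. Outside the leave-outs 3 of 350 values changed sign, all near 0: *Cldn5* was -0.02 with voom weights, and *Mfsd2a* was -0.01 and *Abcc9* 0.00 with quantile normalization. The causes were not tested.

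With a replicate block, *Pdgfb* differed by 0.59 (limma adjusted p = 0.012) and 35 genes were called in all. Libraries with the same number did not deviate together (correlations across genes of -0.0213, -0.121 and -0.083 for replicates 1, 2 and 3), so the numbers were not taken to pair them. The SE of a difference ran from 0.05 for *Bsg* to 0.43 for *Anpep* among the vessel genes, which sets how small a difference each could show.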
